A study of Homo sapiens with 4 samples.

Results

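The genes described here are 176 antisense RNA genes expressed in a bladder cancer cell line. They were selected on name and on total counts, from a table of 61860 genes, as those whose symbol ends in AS and a digit and whose counts summed to at least 200 over the 4 libraries, leaving out ZFAS1 and EPB41L4A-AS1. Of 1821 genes that match the name pattern, 1383 had at least 1 count and 176 reached the sum. The GENCODE 29 annotation types 128 of the 176 as antisense, 27 as processed transcripts and 13 as lincRNA. It types 2 as bidirectional promoter lncRNA, 2 as protein-coding and the rest as transcribed pseudogenes. The sum adds both treatments, so it does not set a direction, but a gene with few counts in 1 group reached it through the other. This was so for 6 members with under 50 counts over the controls and for 9 with under 50 over the treated libraries. The 6 are STPG3-AS1, TROAP-AS1, ICAM4-AS1, KIF23-AS1, SPAG5-AS1 and CACTIN-AS1, all among the largest rises described below. Most of the 9 are among the largest falls. The fold changes of these genes are therefore not independent of the rule. At the edge of the rule, NIFK-AS1 and PRR7-AS1 had sums of 200 and 202, while HOXD-AS2 and LOXL2-AS1 had 199 each and were left out, with log2 fold changes of 0.60 and -3.08.

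HT1376 is an established human bladder cancer line. Cells were given the control labelled WFI (n = 2) or 1 nM Enfortumab vedotin (EV, n = 2), each for 48 h, in the same serum-containing medium. EV is an antibody joined to the microtubule poison monomethyl auristatin E and directed at nectin-4. Since the labels do not describe the replicates as separate cultures, every p-value here reflects only how far these samples spread, which may be technical.

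Antisense RNAs are transcribed from the strand opposite another gene and are named after that sense gene. Some start beside the sense gene's promoter and run away from it, sharing one promoter region, while others start inside or beyond the sense gene and run back across it. Many are spliced and polyadenylated long non-coding RNAs that stay in the nucleus, where the RNA exosome degrades a large share of such transcripts, and an antisense RNA that overlaps its sense transcript can pair with it into double-stranded RNA.

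Total counts ran from 19368791 to 20727175 per library, and log2 CPM correlated at 0.992 between the controls and 0.982 between the EV libraries. Of 16 bladder epithelial markers 10 could be tested, and 9 of them rose in EV (34.5% of all genes tested rose), with a median log2 fold change of 1.84 over the 10. The keratins KRT8, KRT18 and KRT7 went from 733, 387 and 436 CPM in WFI to 1896, 725 and 751 in EV, and GATA3 from 35 to 378 counts over both libraries. KRT5 and TP63 had 0 counts in WFI and 231 and 57 in EV, while CDH1, KRT19 and KRT20 stayed near 0, at 1, 7 and 0 counts and then 16, 1 and 0. NECTIN4, the antigen bound by EV, fell from 57 counts to 15. Its mean was 1.37 CPM in WFI and 0.40 in EV, low in both groups. EPCAM was also low and rose from 9 counts to 41. Whether these marker levels match the named line was not tested. The summed level of the 16 was 1587 to 1603 CPM in WFI and 3415 to 3455 in EV. Of 11 markers of other cell types 5 could be tested and 3 rose, the mesenchymal gene VIM (1724 to 1959 CPM), CD14 (68 to 274 counts) and PECAM1 (70 to 169 counts). Their summed level was 1737 to 1742 CPM in WFI and 1961 to 2004 in EV, or 13.8 to 16.7 and 22.8 to 23.4 without VIM, and CD3E, LYZ and CDH5 were at 0 in WFI. The part of these marker changes in the antisense results was not tested. In bulk RNA, fewer cells of a type and less RNA per cell cannot be told apart. The library kit was directional per the labels, but the strand setting of the counting is not given in the sources used here, so reads of an antisense gene and of a gene on the other strand may not be told apart wherever their exons overlap.

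Antisense genes made up a smaller share of the counts after EV. Scaled to CPM of the total counts, the 176 genes together held 1751 and 1760 in WFI and 1325 and 1305 in EV, a change of -25.1%. PAX8-AS1 lost the most counts, and without it the summed share changed by -20.2%. Leaving out OIP5-AS1 as well gave -17.7%. All of these sums use raw library totals, whereas CPM elsewhere are scaled to TMM-adjusted library sizes. The TMM factors were 1.064 and 1.065 in WFI and 0.942 and 0.937 in EV. On that scale the summed levels of the groups would differ less. By edgeR's quasi-likelihood test at a Benjamini-Hochberg adjusted p below 0.05 over all 17465 genes tested, 64 antisense genes were lower (36.4%), 34 were higher (19.3%) and 78 missed the threshold. Over all genes tested, 34.5% rose and 31.5% fell, 66.0% in all, against 55.7% of the antisense genes. With the minimum sum lowered to 100, 27.7% of 289 antisense genes fell, below the share of all genes tested, and 18.7% rose. The groups did not overlap in CPM for 136 of the 176 (77.3%), below the 82.8% of all genes tested.

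The median log2 fold change of the antisense genes was -0.33, with quartiles of -0.84 and 0.35, against a median of 0.02 over all genes tested. Values were below 0 for 112 of them (63.6%) and for 49.1% of all genes tested. Antisense genes have few counts, with a median sum of 337.5 against 1164 over all genes tested, and their fold changes carry a larger error. Among the 1635 genes tested whose count sums lay between the quartiles of the antisense genes, 247 and 600.5, 26.1% rose and 28.7% fell, with a median of -0.11. The 89 antisense genes in that range rose in 18.0% and fell in 40.4% of cases, with a median of -0.49. Of the 161 antisense genes with 50 or more counts in both groups, 28 rose and 55 fell. Of all 176 antisense genes, 20 passed and rose and 40 passed and fell by a log2 fold change of 1 or more in size. Whether or not genes passed, a value of -1 lay near percentile 22 of the antisense genes and percentile 15 of all genes tested. A value of 1 lay near percentile 89 and percentile 81.

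**Figure D1:**
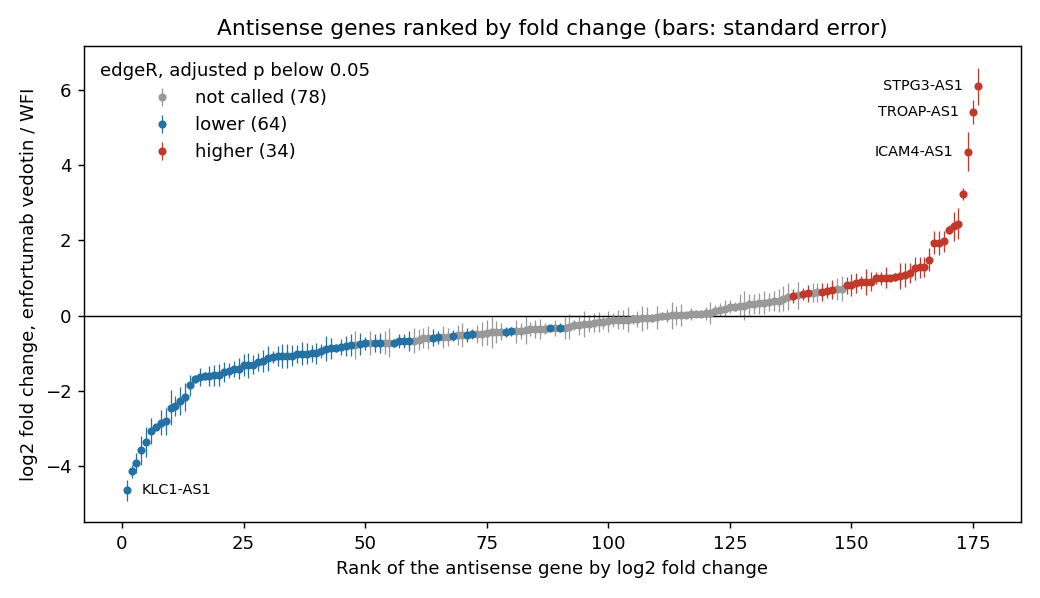
Log2 fold change (EV over WFI, vertical axis) of each of the 176 antisense genes, ranked from lowest to highest (horizontal axis), with bars of 1 standard error. The 64 genes that fell are blue, the 34 that rose are red and the 78 that did not pass are grey. Most points lie below 0, and 3 genes stand above a log2 fold change of 4.

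**Figure D2:**
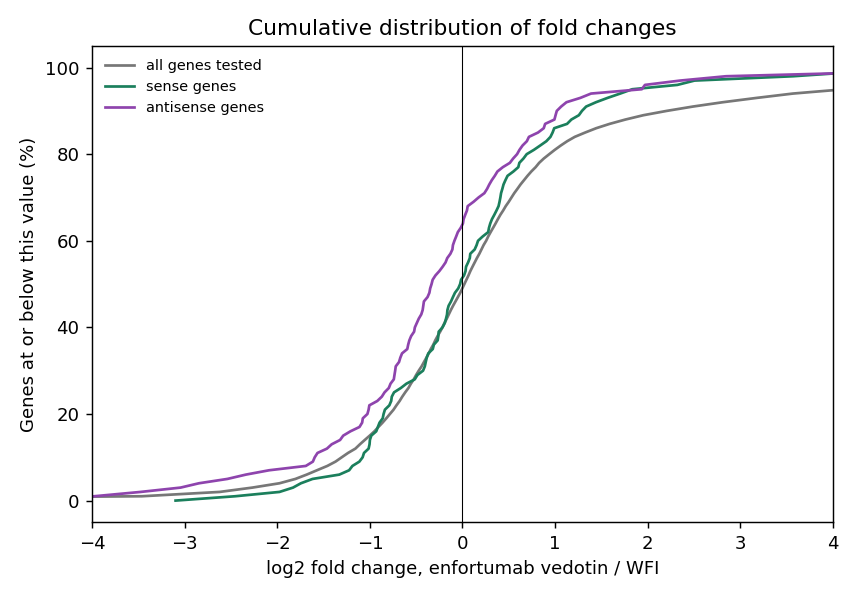
Cumulative share of genes (vertical axis, percent) at or below each log2 fold change (horizontal axis, shown from -4 to 4) for the 176 antisense genes, the 160 sense genes tested and all 17465 genes tested. The antisense curve lies above the other curves at 0, where it has reached 63.6% of genes, while all genes tested have reached 49.1%.

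The antisense genes with the most counts did not move together. FGD5-AS1, a long non-coding RNA from the FGD5 locus on chromosome 3, held the most counts and was also the highest per kilobase of annotated exon, with 32.3 and 32.8 CPM per kilobase in WFI and EV. Its CPM was 163 and 169 in WFI and 169 and 167 in EV, so the groups overlapped. The log2 fold change was 0.02 (SE 0.04, edgeR adjusted p = 0.712), but with an offset for length and GC content it was called higher (0.17, edgeR adjusted p = 0.00372). FGD5 itself, a guanine nucleotide exchange factor, had 0 counts in both controls and 0.330 and 0.103 CPM in EV.

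THAP9-AS1 followed per kilobase among the genes with the most counts, at 10.4 CPM per kilobase in WFI and 21.1 in EV. It had 48.6 and 43.2 CPM in WFI and 95.8 and 89.4 in EV. It rose by a log2 fold change of 1.01 (SE 0.07, edgeR adjusted p = 4.1e-07). THAP9, a domesticated transposase, stayed between 2.66 and 3.78 CPM in all libraries. SEC31A, a coat protein gene of secretory vesicles, covers 10.96% of the antisense exons on the same strand, and it fell by 0.13 on the log2 scale (edgeR adjusted p = 0.0116). Per sense count THAP9-AS1 rose by 1.02 on the log2 scale (limma adjusted p = 0.00558), and without WFI replicate 2 that difference was 0.69 with a limma adjusted p of 0.12.

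THUMPD3-AS1 behaved much like THAP9-AS1 in size. Its CPM was 24.2 and 28.3 in WFI and 48.4 and 58.3 in EV, with no overlap. It rose by a log2 fold change of 1.03 (SE 0.11, edgeR adjusted p = 1.17e-05), while THUMPD3, which encodes a tRNA methyltransferase, had 38.8 and 39.2 CPM in WFI and 37.8 and 41.6 in EV. Its count per sense count was called higher by limma (difference 1.00, adjusted p = 0.0011), but not without WFI replicate 1 (0.89, limma adjusted p = 0.054).

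OIP5-AS1, known as cyrano and as a binder of the microRNA miR-7, fell. It had 72.1 and 70.6 CPM in WFI and 21.0 and 25.7 in EV. The log2 fold change was -1.61 (SE 0.10, edgeR adjusted p = 7.77e-08). OIP5, a centromere protein gene, ran at 1.74 and 2.44 CPM in WFI and 2.09 and 4.24 in EV and did not pass the test. NUTM2A-AS1 had 56.1 and 57.1 CPM in WFI and 43.4 and 46.3 in EV, a log2 fold change of -0.34 (SE 0.07, edgeR adjusted p = 0.00187) that did not pass with an offset for length and GC content (-0.10, edgeR adjusted p = 0.248). This gene has a near-identical copy, NUTM2B-AS1, so its counts are uncertain.

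PAX8-AS1 showed the largest loss of counts. It lies at chr2:113211522-113276581 on the plus strand of GRCh38 (GENCODE 29), across PAX8, which encodes a transcription factor of kidney and thyroid. It had 115.5 and 119.1 CPM in WFI and 15.0 in each EV library. That is a 7.82-fold fall, with a log2 fold change of -2.97 (SE 0.07, edgeR adjusted p = 4.45e-11). PAX8 fell less, from 521 and 512 CPM to 307 and 314, a log2 fold change of -0.73 (SE 0.03, edgeR adjusted p = 7.32e-09). Per 100 PAX8 counts there were 22.2 and 23.3 PAX8-AS1 counts in WFI and 4.89 and 4.77 in EV (log2 difference -2.23, SE 0.13, limma adjusted p = 1.35e-05). The RefSeq window around its start (250 bases before to 50 after, GRCh38.p14), chr2:113235277-113235576 on the plus strand, is shown because this gene carries the largest single loss. The RefSeq start behind it lies 24005 bases inside the GENCODE gene, so the annotations differ on where PAX8-AS1 begins. Capitals mark matches to the motifs listed further on, here 1 GC box.
PAX8-AS1: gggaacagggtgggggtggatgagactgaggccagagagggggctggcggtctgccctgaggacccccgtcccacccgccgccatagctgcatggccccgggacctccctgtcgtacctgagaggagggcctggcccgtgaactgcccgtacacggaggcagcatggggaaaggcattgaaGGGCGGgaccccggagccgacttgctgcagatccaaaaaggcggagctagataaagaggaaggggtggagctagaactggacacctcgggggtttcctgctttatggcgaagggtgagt

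The other large falls were antisense to genes of varied function, and several fell far more than the sense gene. Most of them had under 50 counts over the EV libraries and reached the count sum through WFI. KLC1-AS1, at chr14:103682362-103684015, is antisense to the kinesin light chain gene KLC1, whose product links kinesin-1 to cargo. It had 241 and 292 counts in WFI and 11 and 8 in EV, the lowest log2 fold change of all the antisense genes at -4.64 (SE 0.28, edgeR adjusted p = 8.69e-08). KLC1 itself went from 97.85 and 102.2 CPM to 74.54 and 78.35, a log2 fold change of -0.39 (edgeR adjusted p = 0.000119). Its exons share no bases with exons of any annotated gene on either strand.

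ALDH1A3-AS1, antisense to the retinaldehyde dehydrogenase gene ALDH1A3, had 29.15 and 25.62 CPM in WFI and 1.48 and 1.60 in EV. It fell 17.8-fold (log2 fold change -4.14, SE 0.17, edgeR adjusted p = 3.92e-09), while ALDH1A3 fell by 0.91 on the log2 scale (edgeR adjusted p = 7.56e-10). NFATC2IP-AS1, antisense to the gene of a protein that binds the transcription factor NFATC2, had 12.1 and 9.94 CPM in WFI and 0.660 and 0.775 in EV (log2 fold change -3.92, SE 0.27, edgeR adjusted p = 2.62e-07). NFATC2IP fell by 0.62 (edgeR adjusted p = 6.5e-06). In all 3 of these pairs the antisense gene fell further than the sense gene, with log2 differences of -4.03, -3.15 and -3.14 (limma adjusted p = 3.88e-05, 1.83e-05 and 0.000106).

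RGMB-AS1 fell with no call on its sense gene. It had 10.1 and 12.7 CPM in WFI and 2.31 and 0.878 in EV (log2 fold change -2.85, SE 0.33, edgeR adjusted p = 2.12e-05), and leaving out EV replicate 1 gave -3.70. RGMB, a co-receptor for bone morphogenetic proteins, had 70.7 and 73.1 CPM in WFI and 72.1 and 76.3 in EV (log2 fold change 0.05, edgeR adjusted p = 0.528). The log2 difference between the genes was -2.94 (SE 0.42, limma adjusted p = 0.000929), from -3.63 to -2.25 as either EV replicate was left out.

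In 2 of the 10 largest falls the sense gene fell nearly as much. GDNF-AS1 had 4.84 and 4.88 CPM in WFI and 0.330 and 0.465 in EV (log2 fold change -3.59, SE 0.38, edgeR adjusted p = 9.36e-06), and GDNF, a neurotrophic factor gene, fell by 3.10 (edgeR adjusted p = 0.00209). RNF213-AS1 had 4.70 and 5.69 CPM in WFI and 0.605 and 0.620 in EV (log2 fold change -3.07, SE 0.34, edgeR adjusted p = 1.51e-05), and RNF213, which encodes a very large ubiquitin ligase, fell by 2.58 (edgeR adjusted p = 1.92e-12). Neither difference between the genes passed the test. They were -0.56 (SE 0.45, limma adjusted p = 0.348) for GDNF-AS1 and -0.30 (SE 0.34, limma adjusted p = 0.518) for RNF213-AS1. Without EV replicate 1 the difference of GDNF-AS1 was -1.06. With prior counts of 0.5 and 5 it was -0.22 and -0.81, so it rested in part on the prior count of 2.

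Leaving out an EV library moved the value of each of the remaining 3 large falls. STARD4-AS1, which starts beside the sterol transport gene STARD4, had 9.10 and 8.70 CPM in WFI and 1.37 and 0.362 in EV (log2 fold change -3.37, SE 0.40, edgeR adjusted p = 2.4e-05), and leaving out an EV library moved this to between -4.61 and -2.70. HMGA2-AS1, antisense to the chromatin protein gene HMGA2, had 5.76 and 6.64 CPM in WFI and 0.550 and 1.19 in EV (log2 fold change -2.82, SE 0.36, edgeR adjusted p = 4.16e-05), or -3.50 without EV replicate 2. ZBTB47-AS1, beside the zinc finger gene ZBTB47, had 5.52 and 4.49 CPM in WFI and 1.48 and 0.362 in EV (log2 fold change -2.45, SE 0.47, edgeR adjusted p = 0.000927). Leaving out an EV library gave -3.78 to -1.76. On the opposite strand, NKTR shares 29.3% of its exon bases and fell from 129.8 to 78.2 CPM (edgeR adjusted p = 2.38e-06). NREP shares 15.7% of the exon bases of STARD4-AS1 and fell by 0.93 on the log2 scale (edgeR adjusted p = 0.0051). With the strand setting not given, reads of these antisense genes and of NKTR or NREP may not be told apart. STARD4, HMGA2 and ZBTB47 fell by 1.18, 0.91 and 0.77 on the log2 scale. The further fall of the antisense gene was called for all 3 pairs, with log2 differences of -2.27, -1.87 and -1.80 (limma adjusted p = 0.00763, 0.00458 and 0.0431). Without WFI replicate 1 none of the 3 passed, at -2.21, -1.98 and -1.60 (limma adjusted p = 0.066, 0.0538 and 0.258), and that of ZBTB47-AS1 did not pass with a prior count of 0.5 (-1.94, limma adjusted p = 0.0767).

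**Figure D3:**
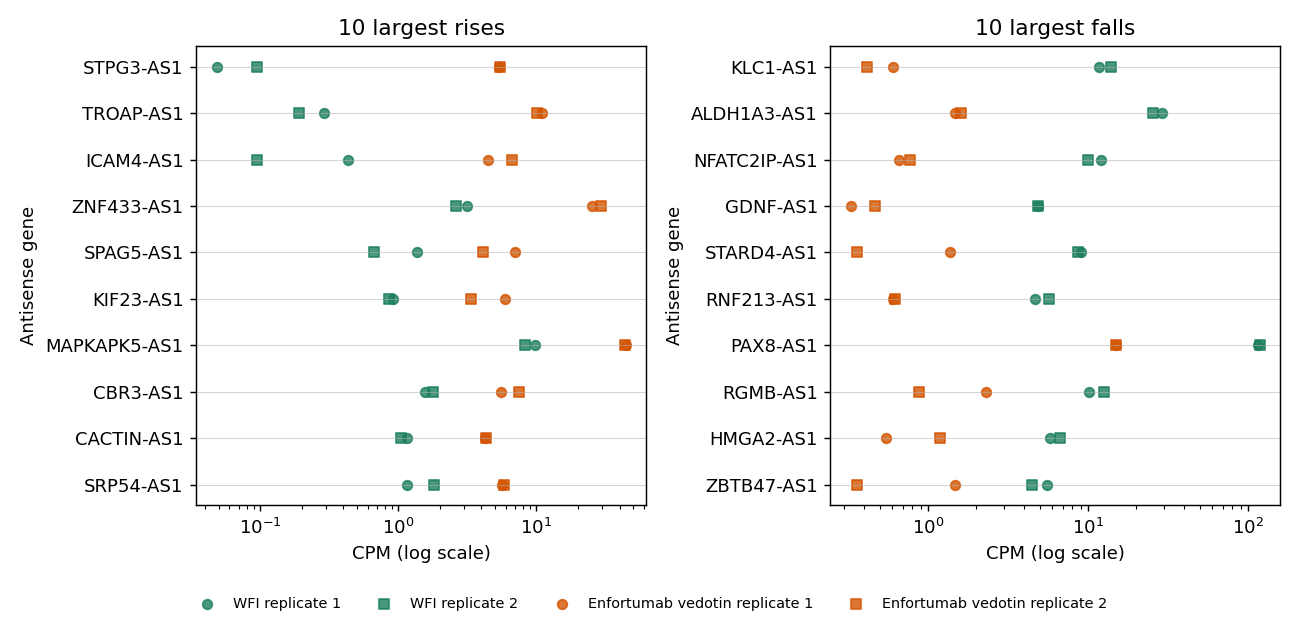
CPM on a log scale (horizontal axis) in each of the 4 libraries for the 10 antisense genes with the largest rises (left) and the 10 with the largest falls (right). Each point is 1 library, green for WFI and orange for EV, circles for replicate 1 and squares for replicate 2. The colours do not overlap for any of the 20 genes, and PAX8-AS1 lies furthest right among the falls.

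The largest rises began from near 0, in genes that reached the count sum through the EV libraries. STPG3-AS1, antisense to the sperm-tail repeat gene STPG3, had 1 and 2 counts in WFI and 97 and 106 in EV, a ratio of 74.9 (exact binomial 95% interval 25.3 to 366, counting error only). STPG3 rose with it, from 0.145 and 0.287 CPM to 4.89 and 6.20 (edgeR adjusted p = 3.38e-06), and shares 37.2% of the antisense exon bases. The difference between the genes was 0.82 on the log2 scale (SE 0.46, limma adjusted p = 0.18), which did not pass.

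TROAP-AS1 had 6 and 4 counts in WFI and 199 and 195 in EV (log2 fold change 5.41, SE 0.33, edgeR adjusted p = 9.1e-08). TROAP, which encodes the spindle protein tastin, rose from 43.5 and 41.4 CPM to 75.42 and 74.99 (log2 fold change 0.83, edgeR adjusted p = 9.79e-07), and shares only 4.6% of the antisense exon bases. Another gene on the other strand shares 58.7% of them: PRPH, the intermediate filament gene peripherin, which had 0 and 0.143 CPM in WFI and 18.8 and 22.2 in EV (edgeR adjusted p = 1.46e-08). With the strand setting not given, the reads of TROAP-AS1 and PRPH may not be told apart.

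ICAM4-AS1 lies across the gene of the red cell adhesion molecule ICAM4, which had 0 counts in all 4 libraries. The antisense gene had 9 and 2 counts in WFI and 81 and 129 in EV (log2 fold change 4.36, SE 0.51, edgeR adjusted p = 2.19e-05), and the value ran from 3.62 to 5.74 as WFI replicate 2 or 1 was left out. The leukocyte adhesion gene ICAM1, which shares 25.3% of its exon bases on the other strand, moved the other way, from 250.2 and 251.4 CPM to 129 and 127 (log2 fold change -0.97, edgeR adjusted p = 3.73e-09).

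ZNF433-AS1 rose together with its sense gene. It lies at chr19:11987617-12046275 on the plus strand in a cluster of zinc finger genes, and had 3.15 and 2.63 CPM in WFI and 25.3 and 29.5 in EV, a 9.49-fold rise (log2 fold change 3.25, SE 0.16, edgeR adjusted p = 1.83e-08). ZNF433 went from 2.91 and 4.25 CPM to 20.5 and 17.0 (log2 fold change 2.39, SE 0.20, edgeR adjusted p = 1.28e-06). The difference of 0.83 between them (SE 0.29, limma adjusted p = 0.0543) did not pass. It passed without WFI replicate 1 (1.22, limma adjusted p = 0.0382) and without EV replicate 1 (1.07, limma adjusted p = 0.00208), and also with a prior count of 5 or a filter of 50 counts in 2 samples (limma adjusted p = 0.0337 and 0.0494). The start windows of the 2 genes, on opposite strands of genes whose annotated starts lie 48124 bases apart, resemble each other. A local alignment with gaps matched 98 of 130 columns (75.4%), with a score of 93 against 42 for the next highest of 123 pairs and a median of 21. Both windows are shown from RefSeq GRCh38.p14, at chr19:11987367-11987666 on the plus strand for the antisense gene and chr19:12035630-12035929 on the minus strand for the sense gene. Capitals mark GC boxes and CCAAT, which stand in the same order in both, with 2 GC boxes and 1 CCAAT each.
ZNF433-AS1: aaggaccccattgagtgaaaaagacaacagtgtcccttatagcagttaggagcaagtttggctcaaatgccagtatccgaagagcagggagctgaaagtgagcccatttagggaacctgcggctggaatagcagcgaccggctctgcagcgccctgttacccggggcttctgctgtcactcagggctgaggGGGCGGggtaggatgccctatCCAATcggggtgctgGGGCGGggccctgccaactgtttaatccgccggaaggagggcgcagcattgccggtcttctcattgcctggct
ZNF433: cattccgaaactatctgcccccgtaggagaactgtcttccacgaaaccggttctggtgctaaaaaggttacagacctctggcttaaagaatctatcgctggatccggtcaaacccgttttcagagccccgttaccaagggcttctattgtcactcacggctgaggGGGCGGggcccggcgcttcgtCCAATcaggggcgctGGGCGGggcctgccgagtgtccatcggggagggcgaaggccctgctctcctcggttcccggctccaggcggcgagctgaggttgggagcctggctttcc

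SPAG5-AS1, KIF23-AS1 and MAPKAPK5-AS1 start within 1000 bases of their sense genes on the other strand, and each rose more than its sense gene. SPAG5-AS1, beside the gene of the spindle protein astrin, had 1.36 and 0.669 CPM in WFI and 7.04 and 4.08 in EV (log2 fold change 2.45, SE 0.41, edgeR adjusted p = 0.000322), and SPAG5 rose by 0.56 (edgeR adjusted p = 1.4e-05). KIF23-AS1, beside the gene of a kinesin of the central spindle, had 0.920 and 0.860 CPM in WFI and 5.94 and 3.36 in EV (log2 fold change 2.37, SE 0.39, edgeR adjusted p = 0.00028), and KIF23 rose by 0.39 (edgeR adjusted p = 8.89e-05). MAPKAPK5-AS1, beside the gene of a stress-activated kinase, had 9.73 and 8.32 CPM in WFI and 44.4 and 43.8 in EV (log2 fold change 2.29, SE 0.11, edgeR adjusted p = 1.73e-08), and MAPKAPK5 rose by 0.76 (edgeR adjusted p = 0.000118). The differences were 1.81, 1.82 and 1.53 on the log2 scale (limma adjusted p = 0.00975, 0.00655 and 0.000362). Other genes on the opposite strand that share exon bases with SPAG5-AS1 and KIF23-AS1 did not rise. BLTP2 (20.99% of the exon bases of SPAG5-AS1) fell by 0.54 and PAQR5 (23.53% of those of KIF23-AS1) fell by 1.91 on the log2 scale (edgeR adjusted p = 4.59e-07 and 3.03e-05).

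CBR3-AS1, CACTIN-AS1 and SRP54-AS1 complete the 10 largest rises. CBR3-AS1 had 1.55 and 1.77 CPM in WFI and 5.55 and 7.49 in EV (log2 fold change 1.97, SE 0.29, edgeR adjusted p = 0.000114), and CBR3, a carbonyl reductase gene, rose by 2.46 (edgeR adjusted p = 1.65e-07). CACTIN-AS1 had 1.16 and 1.05 CPM in WFI and 4.23 and 4.29 in EV (log2 fold change 1.94, SE 0.32, edgeR adjusted p = 0.000333), and CACTIN, a gene of a splicing-associated protein that covers 54.1% of the antisense exon bases, rose by 1.45 (edgeR adjusted p = 5.36e-08). For these genes the difference from the sense gene did not pass, at -0.53 and 0.41 (limma adjusted p = 0.161 and 0.336). SRP54-AS1 had 1.16 and 1.82 CPM in WFI and 5.61 and 5.84 in EV (log2 fold change 1.94, SE 0.31, edgeR adjusted p = 0.00022), against 0.41 for SRP54, a subunit of the signal recognition particle. That difference was 1.495 (limma adjusted p = 0.00587) and did not pass without WFI replicate 1 (1.22, limma adjusted p = 0.0769).

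Antisense and sense genes were then compared as pairs. A sense gene was found in the table for 173 of the 176 genes, 170 distinct genes, and the exceptions, HOXA-AS2, HOXB-AS1 and HOXB-AS3, are named after gene clusters. The median log2 fold change of the 160 sense genes tested was -0.03, and 62 of them fell (38.75%), 60 rose (37.5%) and 38 were not called. Of all genes tested 31.5% fell and 34.5% rose, and of the antisense genes 36.4% fell and 19.3% rose. The difference between antisense and sense was tested with limma on log2 CPM in 163 pairs, within a fit over all 486 pairs that could be tested. It rose in 27 pairs (16.6%) and fell in 54 (33.1%), where over all 486 pairs 16.9% rose and 18.9% fell, 35.8% in all. The median difference was -0.14, against 0.0039 over all pairs, which include these 163. Without WFI replicate 1 these counts were 14 and 31.

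Both genes of a pair passed edgeR's test in 71 pairs. They moved in the same direction in 45 (63.4%), with both higher in 17 and both lower in 28, and in opposite directions in 26 (36.6%). Over all 486 pairs both genes passed in 149, and 65.8% of these moved in the same direction. The antisense gene fell while the sense gene rose in 20 of the 26 opposite pairs and rose while the sense gene fell in 6. Across the 163 pairs, Spearman's rho between the fold changes of the antisense and sense genes was 0.26 and Pearson's r was 0.37. The points share their libraries, and genes are not replicates.

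**Figure D4:**
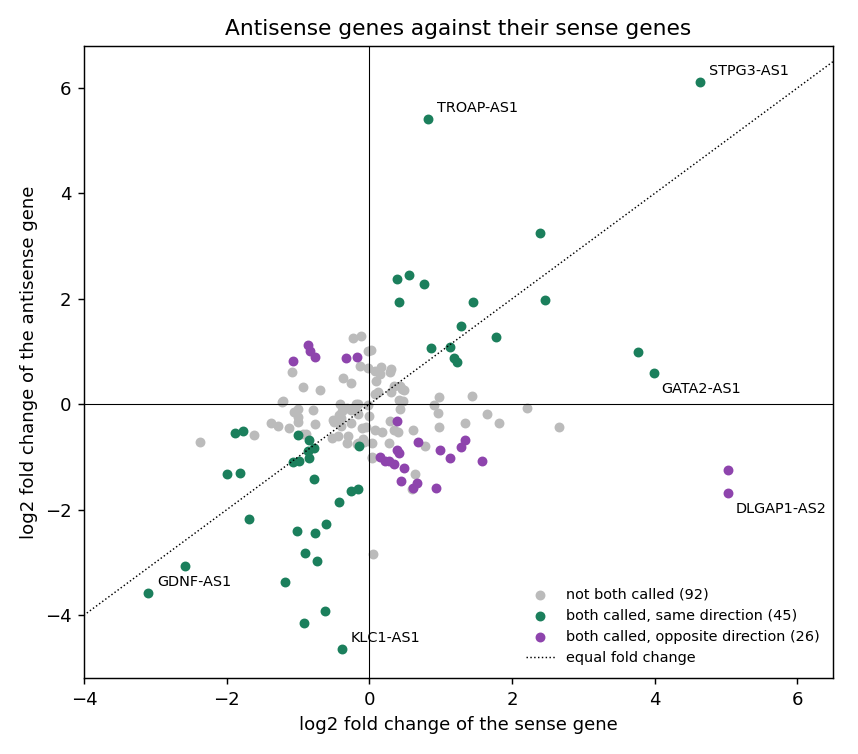
Log2 fold change of the antisense gene (vertical axis) against that of its sense gene (horizontal axis) for the 163 pairs tested. Green points are the 45 pairs in which both genes passed and moved together, purple points the 26 in which they moved in opposite directions and grey points the rest, and the dotted line marks equal fold changes. More purple points lie at lower right, where the sense gene rose, than at upper left.

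In the 6 pairs where the antisense gene rose and the sense gene fell, 3 had start windows that overlap. KMT2E-AS1 had 3.29 and 2.39 CPM in WFI and 5.83 and 6.56 in EV (log2 fold change 1.12, SE 0.26, edgeR adjusted p = 0.00302), while KMT2E, a chromatin regulator of the MLL family, fell from 103 and 100.5 CPM to 61.0 and 51.4 (log2 fold change -0.86, edgeR adjusted p = 2.25e-06). TRAM2-AS1 had 2.23 and 2.06 CPM in WFI and 4.45 and 4.18 in EV (log2 fold change 1.01, SE 0.28, edgeR adjusted p = 0.00876), while TRAM2, a translocon-associated gene linked to collagen synthesis, fell by 0.83 (edgeR adjusted p = 2.95e-07). ZBED5-AS1 had 2.32 and 2.15 CPM in WFI and 3.52 and 4.39 in EV (log2 fold change 0.82, SE 0.29, edgeR adjusted p = 0.0297), while ZBED5, a gene derived from a transposon, fell by 1.07 (edgeR adjusted p = 2.53e-06). The antisense genes have few counts, 43 to 127 per library, and groups did not overlap in any of the 3. The rise of ZBED5-AS1 did not pass without WFI replicate 1, WFI replicate 2 or EV replicate 2 (edgeR adjusted p = 0.102, 0.153 and 0.0835), nor with DESeq2 (adjusted p = 0.0821) or no count filter (edgeR adjusted p = 0.0944), and that of TRAM2-AS1 did not pass without WFI replicate 2 (0.92, edgeR adjusted p = 0.0647). With an offset for length and GC content, KMT2E-AS1 and ZBED5-AS1 did not pass (edgeR adjusted p = 0.11 and 0.0765). The differences from the sense gene, 1.97, 1.81 and 1.85 for KMT2E-AS1, TRAM2-AS1 and ZBED5-AS1, were called by limma (adjusted p = 0.000929, 0.00129 and 0.00134).

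The RefSeq windows of these 3 antisense genes (GRCh38.p14) are shown because each shares bases with the window of the sense gene on the other strand, 163 bases for KMT2E, 241 for TRAM2 and 263 for ZBED5. They lie at chr7:105014092-105014391 on the minus strand, chr6:52576952-52577251 on the plus strand and chr11:10857967-10858266 on the plus strand. Capitals mark motif matches on either strand. None of the motifs was found in the first, 13 GC boxes were found in the second, and the third held 2 GC boxes and 2 CCAAT, of which 1 GC box and 1 CCAAT overlap.
KMT2E-AS1: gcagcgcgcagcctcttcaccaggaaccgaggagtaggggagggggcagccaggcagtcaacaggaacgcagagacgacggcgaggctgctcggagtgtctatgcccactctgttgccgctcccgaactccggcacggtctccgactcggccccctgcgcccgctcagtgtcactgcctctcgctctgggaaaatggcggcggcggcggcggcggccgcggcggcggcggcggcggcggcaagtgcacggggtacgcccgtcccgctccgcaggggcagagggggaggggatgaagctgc
TRAM2-AS1: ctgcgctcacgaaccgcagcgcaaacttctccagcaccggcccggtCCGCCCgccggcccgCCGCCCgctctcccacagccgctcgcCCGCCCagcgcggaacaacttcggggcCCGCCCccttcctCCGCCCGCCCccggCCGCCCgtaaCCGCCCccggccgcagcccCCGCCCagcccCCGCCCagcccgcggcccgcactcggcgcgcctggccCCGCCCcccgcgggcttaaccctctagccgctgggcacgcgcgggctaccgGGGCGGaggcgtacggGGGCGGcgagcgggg
ZBED5-AS1: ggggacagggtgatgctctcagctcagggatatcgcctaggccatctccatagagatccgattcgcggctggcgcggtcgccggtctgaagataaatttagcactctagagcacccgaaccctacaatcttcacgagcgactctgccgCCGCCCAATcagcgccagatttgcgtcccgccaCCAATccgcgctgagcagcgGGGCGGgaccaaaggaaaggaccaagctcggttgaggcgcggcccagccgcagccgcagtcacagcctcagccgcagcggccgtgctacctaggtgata

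The other 3 such pairs, named after their values were seen, were VPS9D1-AS1, ENTPD1-AS1 and GLIPR1-AS1. VPS9D1-AS1 had 8.47 and 7.60 CPM in WFI and 12.97 and 16.68 in EV (log2 fold change 0.88), ENTPD1-AS1 3.10 and 3.39 and then 6.82 and 5.32 (0.90), and GLIPR1-AS1 1.40 and 2.49 and then 3.30 and 3.93 (0.89). Their sense genes fell by 0.33, 0.76 and 0.18 on the log2 scale.

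Among the 20 pairs where the antisense gene fell and the sense gene rose, PSMA3-AS1 and MCM3AP-AS1 have well-known sense genes. PSMA3-AS1 had 24.6 and 25.8 CPM in WFI and 15.6 and 15.1 in EV (log2 fold change -0.72, SE 0.11, edgeR adjusted p = 0.00016), while PSMA3, a proteasome subunit gene, rose from 68.37 and 66.25 CPM to 112.5 and 103 (log2 fold change 0.68, edgeR adjusted p = 2.6e-06). There were 36.1 and 39.0 antisense counts per 100 sense counts in WFI and 13.8 and 14.7 in EV (log2 difference -1.39, limma adjusted p = 0.000362). With an offset for length and GC content the fall of PSMA3-AS1 did not pass (-0.24, edgeR adjusted p = 0.0735). ARMH4, on the same strand, shares 3.4% of its exon bases and did not pass the test (log2 fold change 0.39).

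MCM3AP-AS1 fell from 7.99 and 7.70 CPM to 4.62 and 3.20 (log2 fold change -1.01, SE 0.23, edgeR adjusted p = 0.00278), while MCM3AP, which encodes an mRNA export factor, rose by 0.15 (edgeR adjusted p = 0.0412). The difference of -1.16 (limma adjusted p = 0.0059) did not pass without WFI replicate 1 (-1.13, limma adjusted p = 0.0915). NIFK-AS1, the member with the lowest sum, fell from 3.680 and 3.155 CPM to 1.65 and 1.45 (log2 fold change -1.14, SE 0.33, edgeR adjusted p = 0.00994), while NIFK, a nucleolar protein gene, rose by 0.34 (edgeR adjusted p = 0.0192). Without WFI replicate 1 neither the fall of NIFK-AS1 (-1.06, edgeR adjusted p = 0.0783) nor its difference from NIFK passed. GABPB1-AS1, MAP3K14-AS1 and TP73-AS1, named after their values were seen, fell by 0.68, 1.59 and 0.86 on the log2 scale, while GABPB1, MAP3K14 and TP73 rose by 1.33, 0.93 and 0.39.

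The pairs with the largest drop in antisense relative to sense included 2 antisense genes of a sense gene that was almost silent. DLGAP1-AS2 had 30.6 and 29.4 CPM in WFI and 9.51 and 9.04 in EV (log2 fold change -1.69, SE 0.12, edgeR adjusted p = 2.47e-07). DLGAP1-AS1 had 8.33 and 9.13 CPM in WFI and 4.56 and 2.84 in EV (log2 fold change -1.24, SE 0.24, edgeR adjusted p = 0.00103). DLGAP1, a synaptic scaffold gene, had a sum of 1 count in WFI and 37 in EV. The log2 differences of -4.83 and -4.40 (limma adjusted p = 3.11e-06 and 1.35e-05) rest on that 1 count and so on the prior count of 2, and with prior counts of 0.5 and 5 that of DLGAP1-AS2 was -6.25 and -3.83.

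GATA2-AS1 differed widely from its sense gene. GATA2, which encodes a zinc finger transcription factor, rose from 15.5 and 14.7 CPM to 234 and 246.5 (log2 fold change 3.99, SE 0.06, edgeR adjusted p = 1.38e-12). GATA2-AS1 had 4.067 and 4.015 CPM in WFI and 5.55 and 6.61 in EV, a log2 fold change of 0.59 (SE 0.23, edgeR adjusted p = 0.0407). The gene was no longer called without WFI replicate 1, WFI replicate 2 or EV replicate 2 (edgeR adjusted p = 0.172, 0.188 and 0.111) with DESeq2 (adjusted p = 0.109) or with no count filter (edgeR adjusted p = 0.145), and the value was 0.18 with an offset for length and GC content. Per 100 GATA2 counts there were 26.25 and 27.27 GATA2-AS1 counts in WFI and 2.37 and 2.68 in EV (log2 difference -3.41, SE 0.23, limma adjusted p = 1.83e-05).

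**Figure D5:**
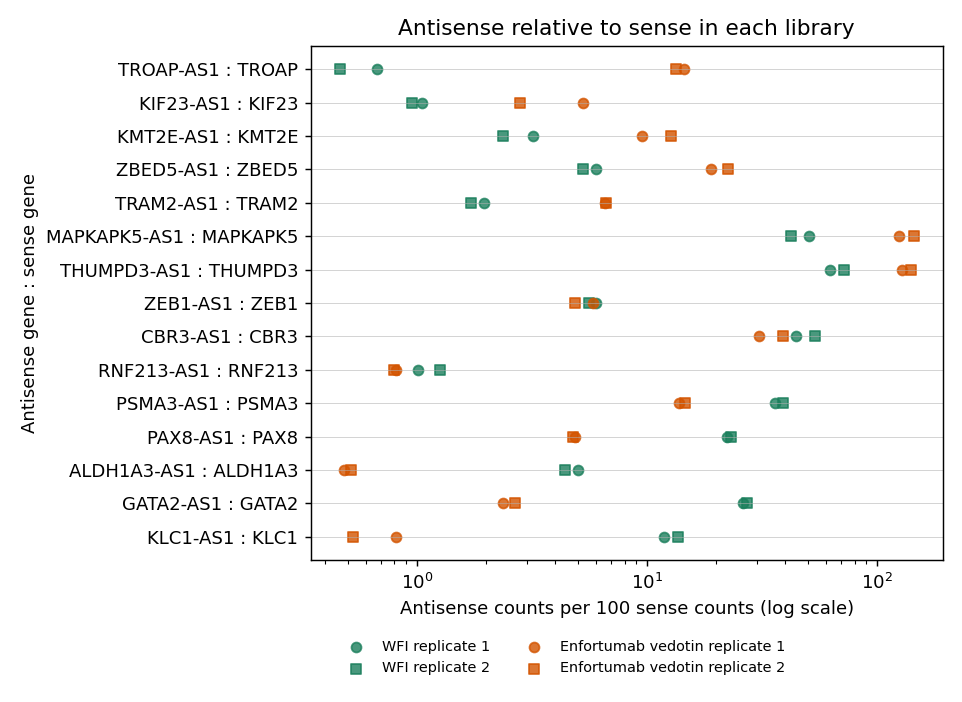
Antisense counts per 100 counts of the sense gene, on a log scale (horizontal axis), in each library for 15 pairs, with green for WFI and orange for EV. The pairs at the top, led by TROAP-AS1 (0.668 and 0.462 in WFI, 14.5 and 13.4 in EV), gained antisense counts per sense count. Those at the bottom, such as KLC1-AS1 (11.9 and 13.7 in WFI, 0.811 and 0.527 in EV), lost them.

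Other antisense RNAs that are often studied in cancer included both genes that passed and genes that did not. SLCO4A1-AS1, antisense to an organic anion transporter gene, fell from 6.15 and 7.36 CPM to 2.20 and 1.55 (log2 fold change -1.85, SE 0.28, edgeR adjusted p = 0.000156). Its difference from SLCO4A1, -1.39 (limma adjusted p = 0.00641), did not pass without either WFI replicate (limma adjusted p = 0.0553 and 0.0788). FOXD2-AS1, near a forkhead transcription factor gene, rose from 6.05 and 5.88 CPM to 11.2 and 7.80 (log2 fold change 0.67, SE 0.21, edgeR adjusted p = 0.0161). This call was lost without WFI replicate 1, WFI replicate 2 or EV replicate 1 (edgeR adjusted p = 0.0512, 0.0675 and 0.0884) and with the length and GC offset (0.27).

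HIF1A-AS3, antisense to the hypoxia factor gene HIF1A, had 7.41 and 5.59 CPM in WFI and 2.47 and 5.68 in EV. The groups overlapped and it did not pass (log2 fold change -0.67, SE 0.34, edgeR adjusted p = 0.105), but without EV replicate 2 the value was -1.41 and without WFI replicate 2 it was -0.89 (edgeR adjusted p = 0.00322 and 0.0191). It was also called lower with the length and GC offset (-1.06, edgeR adjusted p = 0.0145). ZEB1-AS1, beside the gene of a repressor of epithelial genes, had 4.65 and 3.92 CPM in WFI and 2.97 and 2.53 in EV (log2 fold change -0.64, SE 0.28, edgeR adjusted p = 0.0615), which passed without EV replicate 1 (-0.77, edgeR adjusted p = 0.0438). TMPO-AS1, beside the gene of a nuclear lamina protein, ran from 3.13 to 4.16 CPM over all libraries and did not pass (log2 fold change -0.18, edgeR adjusted p = 0.587). PRR7-AS1 is not from that set and is named for its count sum at the edge of the rule. It had 3.15 and 2.82 CPM in WFI and 2.20 and 1.96 in EV (log2 fold change -0.52, edgeR adjusted p = 0.171), and it was called lower with the length and GC offset (-0.98, edgeR adjusted p = 0.0184). Its difference from PRR7 was called (-0.90, limma adjusted p = 0.0438), but not with a prior count of 0.5 (limma adjusted p = 0.051) or without either WFI replicate (limma adjusted p = 0.354 and 0.218).

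The arrangement of the genes was taken from GENCODE 29 on the same build. In 52 pairs the annotated starts were within 1000 bases on opposite strands (divergent), in 119 the genes overlapped with starts further apart, 1 pair lay apart (FOXD2-AS1), and 1 was on the same strand (FAM131B-AS2). Divergent antisense genes rose in 11 and fell in 17 cases (median log2 fold change -0.42), and overlapping ones rose in 22 and fell in 46 (median -0.33). By the closest starts of any annotated transcripts, 103 genes had a start within 1000 bases of a sense start and 69 did not. In the first set 23 rose and 29 fell, and Spearman's rho between antisense and sense fold changes was 0.37 over 101 pairs, with 30 pairs moving together and 11 in opposite directions. In the second set 11 rose and 34 fell, rho was 0.04 over 61 pairs, and 15 pairs moved together and 15 apart. The difference between these sets was not tested.

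The pairs were also split by exon overlap. Where 20% or more of the antisense exon bases lay in exons of the sense gene (31 genes), rho was 0.54 over 30 pairs, with 13 pairs together and 3 opposite. Where the share was above 0 but under 20% (97 genes), rho was 0.21 over 92 pairs, and with no shared base (44 genes) it was 0.10 over 40 pairs. In the set with the most overlap 10 genes rose and 11 fell, and in the set with none 7 rose and 16 fell. The part of unresolved strands in this was not tested. Of the 176 genes, 142 share exon bases with some gene on the other strand and 23 with a gene on the same strand. The 32 with neither rose in 5 and fell in 10 cases, with a median log2 fold change of -0.37.

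RefSeq start windows of 300 bases were matched by symbol for 137 of the antisense genes. The RefSeq start lay within 1000 bases of the GENCODE gene start for 121 of them and further away for 16. Motifs were searched on both strands, and matches may overlap. The letters searched were TGANTCA for AP-1, TGACGTCA for the CRE and CACGTG for the E-box. For the GC box they were GGGCGG. The TATA motif was TATAAA. The last motif, CCAAT, is named by its letters. The GC box was present in 62.0% of the antisense windows and in 45.0% of all 35116 windows, and TATA in 4.38% and 11.5%. The median number of CpG was 24 and 14. For AP-1 the shares were 8.76% and 7.71%, for CRE 2.19% and 1.85%, for the E-box 9.49% and 7.26%, and for CCAAT 28.5% and 34.6%. The 143 windows of sense genes were close to the antisense windows in the GC box (63.6%), TATA (4.9%) and CpG (median 26). The GC box was held by 62.5% of the windows of the 24 genes that rose and by 63.3% of those of the 49 that fell. TATA was found in 0 windows of either set and in 6 of the 64 windows of genes that did not pass. In the windows of genes that rose and fell, the E-box share was 8.33% and 16.3% and the CCAAT share 29.2% and 40.8%. For AP-1 these were 8.33% and 6.12%, and for CRE 4.17% and 0%. Genes that did not pass had 4.69% for the E-box, 18.8% for CCAAT, 10.9% for AP-1 and 3.12% for CRE. These differences were not tested. In 22 pairs the antisense and sense windows overlapped, and 5 of these antisense genes rose, 4 fell and 13 did not pass.

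Genes that degrade or terminate antisense transcripts moved in both directions. Of 27 genes of the nuclear exosome, its adaptors and transcription termination, 10 fell, 13 rose and 4 were not called, where 31.5% and 34.5% of all genes tested fell and rose. Their median log2 fold change was -0.11, against 0.02 over all genes tested. PCF11, a factor of transcript cleavage and transcription termination, rose from 45.4 and 53.9 CPM to 591 and 636 (log2 fold change 3.63, SE 0.07, edgeR adjusted p = 6.02e-12). SRRT, which links the cap of a transcript to its decay, rose from 133.0 and 132.3 CPM to 243 and 260.0 (log2 fold change 0.92, edgeR adjusted p = 1.55e-08). MTREX, the helicase that feeds RNA to the exosome, fell from 94.1 and 92.5 CPM to 53.7 and 48.9 (log2 fold change -0.86, edgeR adjusted p = 5.51e-07), and its partner RBM7 fell by 0.90 (edgeR adjusted p = 2.86e-05). The number that rose was 8 without WFI replicate 2.

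Genes that sense, edit or cut double-stranded RNA were mostly lower. Of the 18 tested and reported here, 16 fell and 2 rose, where 31.5% of all genes tested fell and 34.5% rose. Their median log2 fold change was -1.11, against 0.02 over all genes tested. RIGI, a sensor of double-stranded RNA, fell from 5.42 and 5.55 CPM to 0.440 and 0.568 (log2 fold change -3.42, SE 0.35, edgeR adjusted p = 6.63e-06), and MAVS, the adaptor through which it signals, fell from 428.5 and 427 CPM to 111.8 and 115.1 (log2 fold change -1.91, SE 0.04, edgeR adjusted p = 1.01e-11). EIF2AK2, the RNA-dependent kinase PKR, fell by 1.46, the editing enzyme gene ADAR by 0.73 and the nuclease gene DICER1 by 1.09 on the log2 scale (edgeR adjusted p = 5.03e-10, 2.27e-08 and 3.83e-07). DHX58 and TARBP2 rose by 0.53 and 0.60 (edgeR adjusted p = 0.00116 and 0.00037). Whether these changes bear on the antisense genes was not tested.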

How the data were processed

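RNA-seq of 2 WFI and 2 EV libraries of HT1376 was used. The authors deposited raw whole-number counts per gene. Reads were placed on hg38, per the submitters' processing notes. Which aligner, counter, strand option and annotation release were used is not given in the sources used here. Of 61860 genes, 61757 identifiers matched a symbol and 103 did not. All 176 antisense genes passed edgeR's filter on low counts (filterByExpr), which left 17465 genes.

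Counts were tested with edgeR 4.0.16 (R 4.3.3), using TMM scaling, the quasi-likelihood test with the group as the only term, and Benjamini-Hochberg adjustment over all genes tested. CPM were scaled to the TMM-adjusted library size. The standard error is the log2 fold change divided by the square root of F. Antisense minus sense log2 CPM (prior count 2) was tested with limma 3.58.1 over 486 pairs. The sense gene is the symbol before AS, matched by current or older symbol. Arrangement and exon overlap came from GENCODE 29, and windows from RefSeq GRCh38.p14. Windows were aligned locally with scores of 2 for a match, -3 for a mismatch, -5 to open and -2 to extend a gap. Both tests were run on data simulated with the same dispersion for every gene, so their error rates in these libraries were not measured. Depth limits precision for genes with few counts, and intervals cover counting error only.

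The antisense genes and lists were chosen with earlier results of these data known. From the double-stranded RNA list, 1 gene is not reported here and is in none of its counts. Named genes were the 10 largest rises and 10 largest falls that passed without overlap of the groups, the 6 with the highest mean CPM, the 5 largest rises and 5 largest falls of the difference from the sense gene, the 2 genes on each side of the sum of 200, and 19 genes fixed by name, of which 14 were members. As alternatives, DESeq2 1.42.0 was run, and edgeR with upper quartile or RLE scaling, other count filters, prior counts and minimum sums, a replicate block, an offset for spliced length and GC content fitted with mgcv 1.9.3, and leaving out each library.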

Additional observations from a re-analysis of the deposited data

How the results depend on the processing

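The antisense genes that rose and fell numbered 28 and 50 with DESeq2, 36 and 63 with RLE scaling, 38 and 60 with upper quartile scaling and 30 and 68 with the length and GC offset. These are not all the same genes, as the offset kept 80 of the 98 calls of the main fit. Running without a count filter kept 91. Leaving out a library gave 24 to 34 higher and 51 to 72 lower. Of the 98 calls, DESeq2 kept 78, and 74 were kept without WFI replicate 1, 77 without WFI replicate 2, 89 without EV replicate 1 and 91 without EV replicate 2. Their median log2 fold change stayed between -0.41 and -0.28 in all of these settings and without a count filter. A minimum sum of 100 gave 54 higher and 80 lower of 289 (18.7% and 27.7%, where 31.5% of all genes tested fell; median log2 fold change -0.28), and a minimum of 500 gave 10 higher and 24 lower of 56. The pair counts ran from 14 to 38 higher and from 31 to 62 lower as each library was left out, with the lowest without WFI replicate 1. The RNA surveillance genes that rose ran from 8 to 12 as each library was left out. With the length and GC offset 1 gene of the double-stranded RNA list rose. The cause was not tested. Among values that had not passed, the sign of FGD5-AS1 changed without a count filter (-0.057), and it ran from -0.038 to 0.014 as each library was left out. The sign also changed for antisense-minus-sense differences that had not passed as each library was left out, with ranges of -0.066 to 0.723 for FOXD2-AS1, -0.232 to 0.603 for NUTM2A-AS1, -0.178 to 0.142 for TMPO-AS1 and -0.225 to 0.030 for ZEB1-AS1. The differences of FOXD2-AS1 and NUTM2A-AS1 passed without EV replicate 2. The labels number the replicates of both groups, and no pairing is known. Deviations of the same-numbered libraries correlated at 0.016 over 17465 genes, which cannot settle whether they were paired. With the replicate number as a block, 35 antisense genes rose and 67 fell, and the pair difference rose in 29 and fell in 55. Among the named genes the block changed 3 calls: HIF1A-AS3 was called lower (-0.73, edgeR adjusted p = 0.00945), the difference of ZNF433-AS1 was called (limma adjusted p = 0.00285) and that of PRR7-AS1 was not (limma adjusted p = 0.0511). The antisense genes had a median count sum of 337.5 over the 4 libraries, and the median SE was 0.27 for those that passed and for those that did not, against 0.14 over all genes tested.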
